A study of Mus musculus with 14 samples.

Results

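The histone variant H2A.Z was followed at 6 gene loci of the Wnt-driven intestinal stem cell programme: Lgr5, Olfm4, Ascl2, Axin2, Sox9 and Myc. Each locus was taken as a padded window of the mouse genome build mm9, and every H2A.Z peak overlapping a window by at least 1 bp was a member. The 8 peak lists held 53 such peaks, out of 6136 to 32131 peaks per list. Joined across the lists wherever they overlapped or touched, they formed 14 of the 45028 regions of the whole data set. The windows were chromosome 10 from 114877000 to 115045000 for Lgr5, chromosome 14 from 80380000 to 80442000 for Olfm4, chromosome 7 from 150132000 to 150175000 for Ascl2, chromosome 11 from 108762000 to 108832000 for Axin2, chromosome 11 from 112623000 to 112669000 for Sox9 and chromosome 15 from 61797000 to 61842000 for Myc.

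Chromatin immunoprecipitation and sequencing had been carried out on small intestinal epithelium of mixed C57BL/6 CD1 mice at 4 stages, with 2 H2A.Z libraries each and 6 input libraries of DNA without precipitation. The embryonic groups were EpCAM+ CD31- CD45- epithelial cells at E12.5 and E14.5. The adult groups were Lgr5+ intestinal stem cells (ISC), sorted for high EGFP, and EpCAM+ CD31- CD45- enterocytes, both from Lgr5EGFP-Cre-ERT males of P60. In that strain the EGFP reporter is driven from Lgr5, so that 1 of the 6 loci was also the basis of the stem cell sort and carried the reporter allele in both adult groups. The labels do not give the genotype of the embryos, so an effect of the allele and of age at Lgr5 cannot be told apart. No mm9 gene annotation was used here: a peak is placed in a window, not at a promoter, exon or intron, and the cell types could not be checked against peaks at marker genes.

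Wnt ligands stabilise β-catenin, which joins TCF factors on DNA and switches on target genes; in the intestine this signal is strongest at the crypt base and maintains the stem cells. Lgr5 is a receptor for R-spondins, which strengthen Wnt signalling. Olfm4 is a secreted glycoprotein and Ascl2 a transcription factor, and both mark crypt base stem cells. Axin2 is a scaffold of the complex that degrades β-catenin and a feedback inhibitor, while Sox9 and Myc are transcription factors of crypt progenitors. H2A.Z replaces the core histone H2A in nucleosomes beside many active and poised promoters and enhancers.

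The RefSeq promoter table of the build GRCm38.p6 matched 3 of the 6 genes, and the 250 bases before each gene start are shown to compare their CG pairs, printed in capitals. Unmethylated CG-rich promoters are common places of H2A.Z. The stretches are chr14:80000052-80000301 on the plus strand for Olfm4, chr7:142969265-142969514 on the minus strand for Ascl2 and chr11:108920099-108920348 on the plus strand for Axin2, and these coordinates cannot be set against those of the mm9 windows.
Olfm4: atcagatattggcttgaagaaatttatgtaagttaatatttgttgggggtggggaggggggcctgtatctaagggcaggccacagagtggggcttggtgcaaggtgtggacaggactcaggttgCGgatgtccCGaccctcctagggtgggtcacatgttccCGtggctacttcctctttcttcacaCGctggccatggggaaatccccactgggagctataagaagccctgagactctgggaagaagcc
Ascl2: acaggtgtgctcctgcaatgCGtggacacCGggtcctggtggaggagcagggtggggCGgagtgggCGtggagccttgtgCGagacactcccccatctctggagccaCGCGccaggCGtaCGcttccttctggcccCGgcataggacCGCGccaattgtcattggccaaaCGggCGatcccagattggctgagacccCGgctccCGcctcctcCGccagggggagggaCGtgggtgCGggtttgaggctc
Axin2: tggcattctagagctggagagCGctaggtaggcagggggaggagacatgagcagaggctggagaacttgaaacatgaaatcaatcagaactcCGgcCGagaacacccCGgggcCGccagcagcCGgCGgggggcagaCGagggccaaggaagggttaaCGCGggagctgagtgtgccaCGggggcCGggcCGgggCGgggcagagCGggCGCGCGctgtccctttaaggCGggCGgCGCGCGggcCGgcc
The Olfm4 stretch held 4 CG pairs, with G or C at 54% of its bases. The Ascl2 stretch held 19 pairs and 67.6% G or C, and the Axin2 stretch 24 pairs and 69.2%. Olfm4 lay below the median of 6 pairs over 32841 promoters of the same length, whereas 19.7% of promoters had as many pairs as Ascl2 and 12.0% as many as Axin2. The TCF motifs CTTTGAA and CTTTGAT, searched on both strands, were in none of the 3 stretches and in 7.48% of all promoters.

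**Figure D1:**
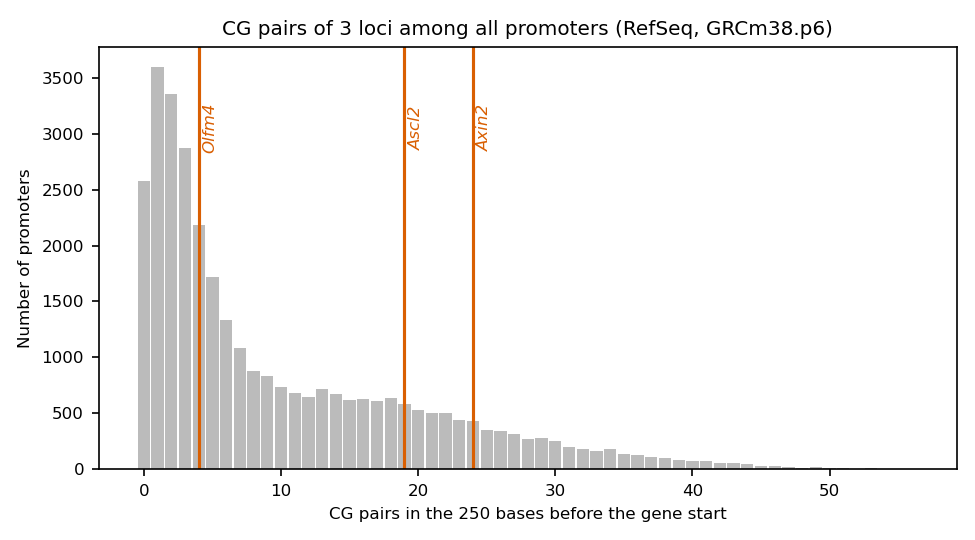
Number of promoters (vertical axis) by CG pairs in the 250 bases before the gene start (horizontal axis) for 32841 RefSeq promoters of GRCm38.p6, with vertical lines at the 3 matched genes. Olfm4 sits at 4 pairs, in the tall left part of the distribution, and Ascl2 at 19 and Axin2 at 24 in its right tail.

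The libraries differed in ways that touch every locus. They held 27835048 to 41274126 tags, and their inputs 31049250 to 34328629. E14.5 replicate 2 had the fewest tags and peaks (6136), and the fragment size that the peak caller had estimated was 71 bp there and 67 bp in enterocyte replicate 1, against 191 to 247 bp in the other 6. Both low estimates were next to the tag length of 68 bp. The labelled fragment range, 350 to 700 bp, was the same for all samples, and every estimate lay below it. Whether the DNA of these 2 libraries was shorter was not tested. The median peak width was 238 and 388 bp in these 2 libraries and 731 to 921 bp in the others. Both ISC libraries were called against 1 shared input and both enterocyte libraries against another. The submitters describe duplicates for every stage but not whether separate animals gave them, so p-values reflect no more than the spread of these libraries. In such bulk samples, a smaller share of cells with H2A.Z at a locus and less H2A.Z per cell cannot be told apart.

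H2A.Z was called at all 6 loci in E12.5 replicate 1, E14.5 replicate 1 and ISC replicate 2. It was called at 5 loci in E12.5 replicate 2 and in ISC replicate 1, which lacked Sox9 and Olfm4 respectively. Enterocyte replicate 1 had peaks at 3 loci and replicate 2 at 4, and neither had any at Lgr5 or Olfm4. E14.5 replicate 2 had a single member peak, at Olfm4. Each locus had 1 widest region, which the peak map shows, and the other 8 regions were 277 to 914 bp wide and lay in at most 4 libraries each.

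**Figure D2:**
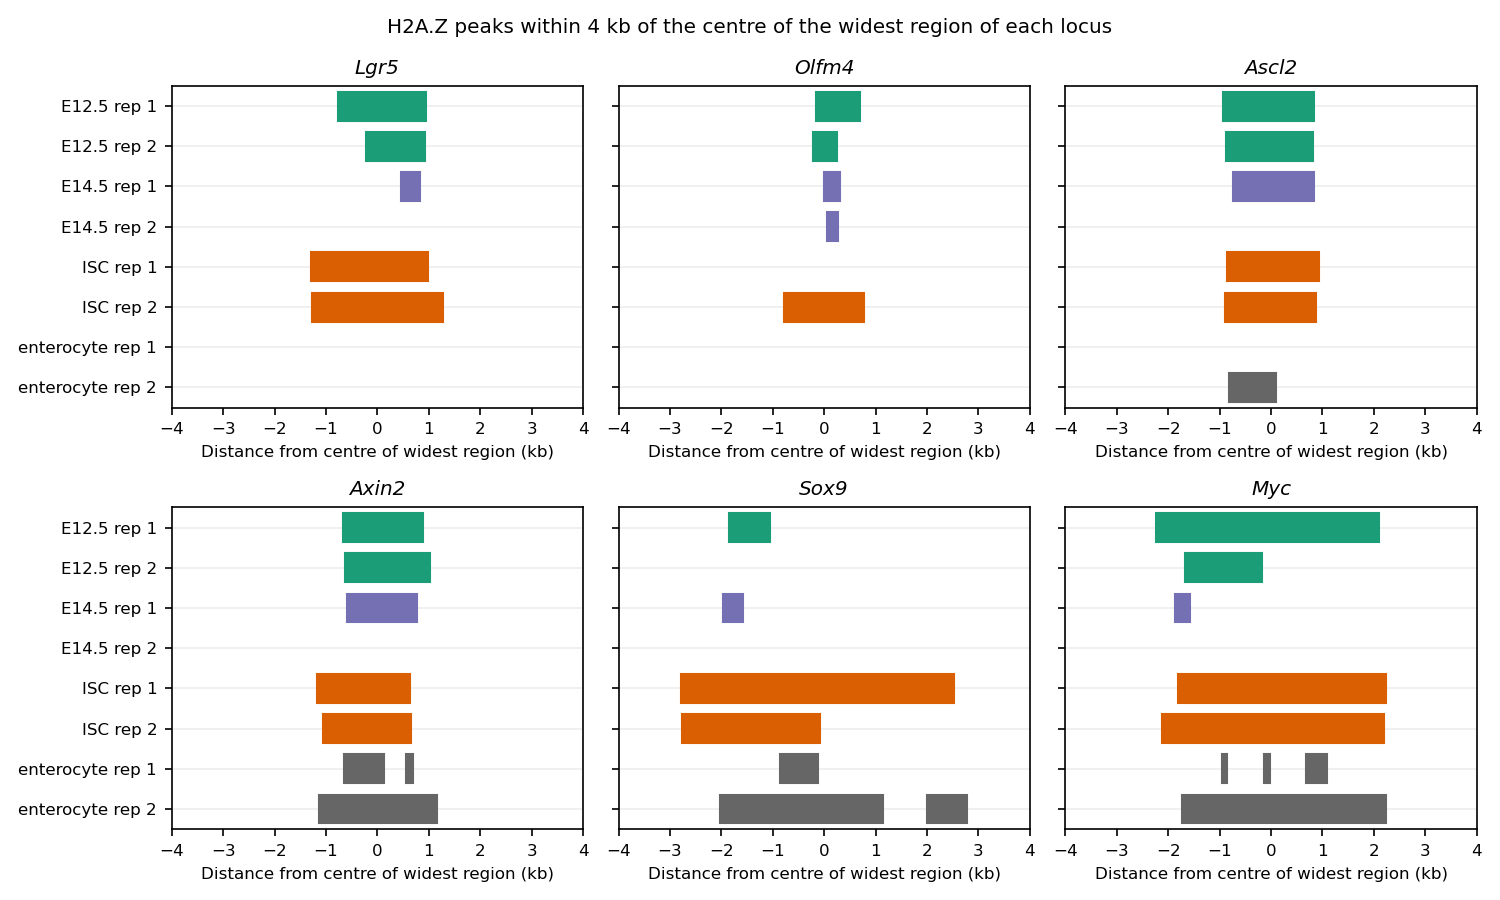
Peaks of the 8 libraries (rows, 2 per stage, coloured by stage) at the widest region of each locus, with the distance from its centre in kb on the horizontal axis. The Lgr5 row is empty in both enterocyte libraries, the Sox9 bars are short in the embryonic and long in the ISC libraries, and E14.5 replicate 2 has a bar at Olfm4 alone.

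Lgr5, the receptor, carried H2A.Z in E12.5 epithelium and in ISC and had no peak in enterocytes. Its widest region spanned 2568 bp on chromosome 10 from 115022907 to 115025474. Peaks covered 1709 and 1155 bp of it in the E12.5 libraries, 380 and 0 bp at E14.5, 2276 and 2559 bp in ISC and 0 bp in both enterocyte libraries. Both ISC values were thus above all the others, and E14.5 was the lower of the embryonic stages. The share of all regions with ISC above all others was not computed, but 48.3% had both ISC values above both E14.5 ones. The ISC lists were also the longest, with 26925 and 32131 peaks. The fold enrichment is the caller's ratio of signal to local background within 1 library. For the peaks of this Lgr5 region it was 3.93 and 3.27 at E12.5, 2.25 in E14.5 replicate 1, and 3.17 and 3.78 in ISC. The E14.5 peak was among the weakest of its list, since 99.5% of the peaks there had an equal or higher fold. All 5 libraries shared a stretch of 380 bp, from 115024643 to 115025022, which is the whole E14.5 peak. In ISC, the peaks of the replicates shared 88.3% of their joint length.

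A second Lgr5 region, of 594 bp from 114915528 to 114916121, had a peak of 408 and 594 bp in the E12.5 libraries and in no other library. Its folds of 2.78 and 2.60 were in the lower part of both lists, where 87.5% and 93.5% of peaks were as high. The remaining Lgr5 regions were single peaks of ISC replicate 2, 503 and 565 bp wide. In RefSeq, A930009A15Rik overlaps Lgr5, and Zfc3h1 and Tspan8 are the nearest other protein-coding genes, so the window may hold signal of a neighbour.

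Olfm4 had a different pattern: its widest region was the only member with a peak in all 4 embryonic libraries. It spanned 1548 bp on chromosome 14 from 80389018 to 80390565. Peaks covered 865 and 475 bp at E12.5, 308 and 225 bp at E14.5, 0 and 1548 bp in ISC and 0 bp in both enterocyte libraries. The adult libraries therefore held both the highest value and 3 zeros. The folds were low for their lists in 4 of the 5 libraries: 2.87, 2.66, 2.89 and 2.69 in E12.5 replicates 1 and 2, E14.5 replicate 1 and ISC replicate 2, with 69.7 to 90.8% of peaks as high. In E14.5 replicate 2 the fold was 4.05, and 22.1% of peaks were as high, but by p 72.2% of that list was as high. The caller's −log10 q was 2.25 and 1.30 at E12.5, 1.44 and 1.36 at E14.5, and 1.71 in ISC replicate 2. Only the peak of E12.5 replicate 1 thus passed a −log10 q of 2. Among the 5159 regions with a peak in all 4 embryonic libraries, 1.69% had a peak in no adult library and 78 (1.51%) in exactly 1. A further 6.9% had a peak in 2, 12.4% in 3 and 3999 (77.5%) in all 4. This class of regions was chosen after seeing the Olfm4 values. The second Olfm4 region, 277 bp from 80400117 to 80400393, was a peak of E12.5 replicate 1 alone, with a fold of 3.24.

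Ascl2, the transcription factor, had the most even region of the stem cell genes in E12.5 and ISC. The region spanned 1873 bp on chromosome 7 from 150153410 to 150155282. Coverage was 1766 and 1692 bp at E12.5, 1579 and 0 bp at E14.5, 1801 and 1780 bp in ISC, and 0 and 903 bp in enterocytes. The embryonic and ISC peaks were alike in width, and the enterocyte peak was about as wide as the part that all 6 shared, 838 bp from 150153602 to 150154439. The replicates shared 95.8% of their joint length at E12.5 and 94.4% in ISC. Folds were 3.93 and 2.78 at E12.5, 2.61 in E14.5 replicate 1, 3.70 and 3.95 in ISC and 3.27 in enterocyte replicate 2. The ISC peaks ranked higher in their lists, with 36.6% and 28.7% of peaks as high, than that of enterocyte replicate 2 with 70.9%, but lists of different lengths show no change by rank. A small region of 318 bp from 150135807 to 150136124 had peaks in E12.5 replicate 1 and ISC replicate 1.

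Axin2, the feedback inhibitor, carried H2A.Z in every library but E14.5 replicate 2. Its widest region lay on chromosome 11 from 108781226 to 108783559, 2334 bp. Peaks covered 1559 and 1667 bp at E12.5, 1360 and 0 bp at E14.5, 1803 and 1703 bp in ISC, and 898 and 2308 bp in enterocytes. Among the 7 libraries with a peak, the enterocyte replicates gave the lowest and the highest value. Enterocyte replicate 1, with the short estimated fragment size, had 2 separate peaks of 769 and 129 bp. The part shared by all 7 libraries held 787 bp.

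The Axin2 region stood near the top of both enterocyte lists by fold and in the lower part of both ISC lists. The strongest peak had a fold of 5.13 and 5.03 in enterocytes, 3.06 and 2.89 in ISC, 4.23 and 3.61 at E12.5 and 3.03 in E14.5 replicate 1. Within their lists, 4.95% and 12.2% of enterocyte peaks were as high, against 58.0% and 69.3% of ISC peaks. The groups did not overlap by fold, and neither did those of Sox9 and Myc, the other member regions with a peak in all 4 adult libraries. Of the 11145 such regions in the data set, 37.9% had both enterocyte folds above both ISC folds. By rank within the lists, Axin2 and Myc stood higher in both enterocyte libraries than in both ISC libraries, as did 16.1% of these regions. The opposite order was found in none of the 3 member regions, against 24.6% of these regions by fold and 42.6% by rank. Ranked by p, the Myc groups overlapped, with 46.6% of peaks as high in enterocyte replicate 2 and 42.3% in ISC replicate 1. The pileup of the strongest peaks, the caller's coverage signal, was lower in enterocytes than in ISC at all 3. It was 10.77 and 21.05 against 34.34 and 31.03 at Axin2, and 8.91 and 18.22 against 29.23 and 29.46 at Sox9. At Myc it was 10.54 and 17.11 against 33.36 and 26.46. Like fold, it is a value within 1 list. No share over all regions was computed, so the order cannot be read as particular to these 3. Enterocyte replicate 1 had the lower enterocyte pileup at each, and an estimated fragment size of 67 bp against 247 and 228 bp in ISC. The part of fragment size in these values was not tested. Fold is a value within 1 list, 2 libraries against 2 allow no exact two-sided p below 0.333, and the median fold of the lists differed too: 4.29 and 3.70 in enterocytes, 3.27 and 3.28 in ISC. Among member peaks, the lowest fold in enterocyte replicate 1, 4.06, was above the highest in either ISC library, 3.70 and 3.95. For that library the order by fold was thus the same whichever member peak was taken. When each list was held to its 6136 strongest peaks by p, the Axin2 region was listed in both enterocyte libraries and in neither ISC library, 1 of 5 member regions left, as were 4.72% of the 12760 regions of these shorter lists. The part of the separate inputs in this difference was not tested.

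A second Axin2 region, 914 bp from 108771172 to 108772085, had peaks of 784 bp in E12.5 replicate 1, 686 and 756 bp in ISC and 799 bp in enterocyte replicate 2. Its folds of 2.44 to 3.05 were low for each list, with 72.9 to 97.7% of peaks as high. The third, of 599 bp from 108768098 to 108768696, was a peak of E12.5 replicate 1 alone.

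Sox9 had the widest region of the 6 loci, 5555 bp on chromosome 11 from 112641575 to 112647129. A share of 0.0533% of all regions was as wide. Peaks covered 810 and 0 bp at E12.5, 404 and 0 bp at E14.5, 5302 and 2693 bp in ISC, and 728 and 3941 bp in enterocytes. In all, 3 of the adult libraries were above every embryonic one, and enterocyte replicate 1 lay between the embryonic values. The ISC replicate 1 peak of 5302 bp was a single call, and 0.0817% of the peaks of its list were as wide. No base was covered in all 6 libraries with a peak: the most was 5, over 285 bp from 112642493 to 112642777. Folds were less spread than widths, at 2.95 and 3.14 in the embryonic libraries, 3.20 and 3.62 in ISC, and up to 4.69 and 3.87 in enterocytes. A small region of 379 bp from 112649699 to 112650077 was a peak of ISC replicate 1 alone, with a fold of 2.21.

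Myc was covered by a broad region in ISC, in 1 of the E12.5 libraries and in 1 of the enterocyte libraries. It spanned 4484 bp on chromosome 15 from 61815313 to 61819796, and 0.215% of all regions were as wide. Coverage was 4343 and 1513 bp at E12.5, 304 and 0 bp at E14.5, 4055 and 4315 bp in ISC, and 633 and 3973 bp in enterocytes. The ISC replicates were alike, sharing 92.2% of their joint length, whereas those of E12.5 shared 34.8% and those of enterocytes 15.9%. The 633 bp of enterocyte replicate 1 were 3 peaks of 114, 118 and 401 bp, all inside the 3973 bp peak of replicate 2. The narrowest of them had a fold of 5.46, and 1.16% of the peaks of its list were as high. In the other libraries the fold was 2.70 to 3.84. This was the only region of its window, and the next regions outside lay 5086 bp before and 6931 bp after the window, each a peak of E12.5 replicate 1 alone.

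**Figure D3:**
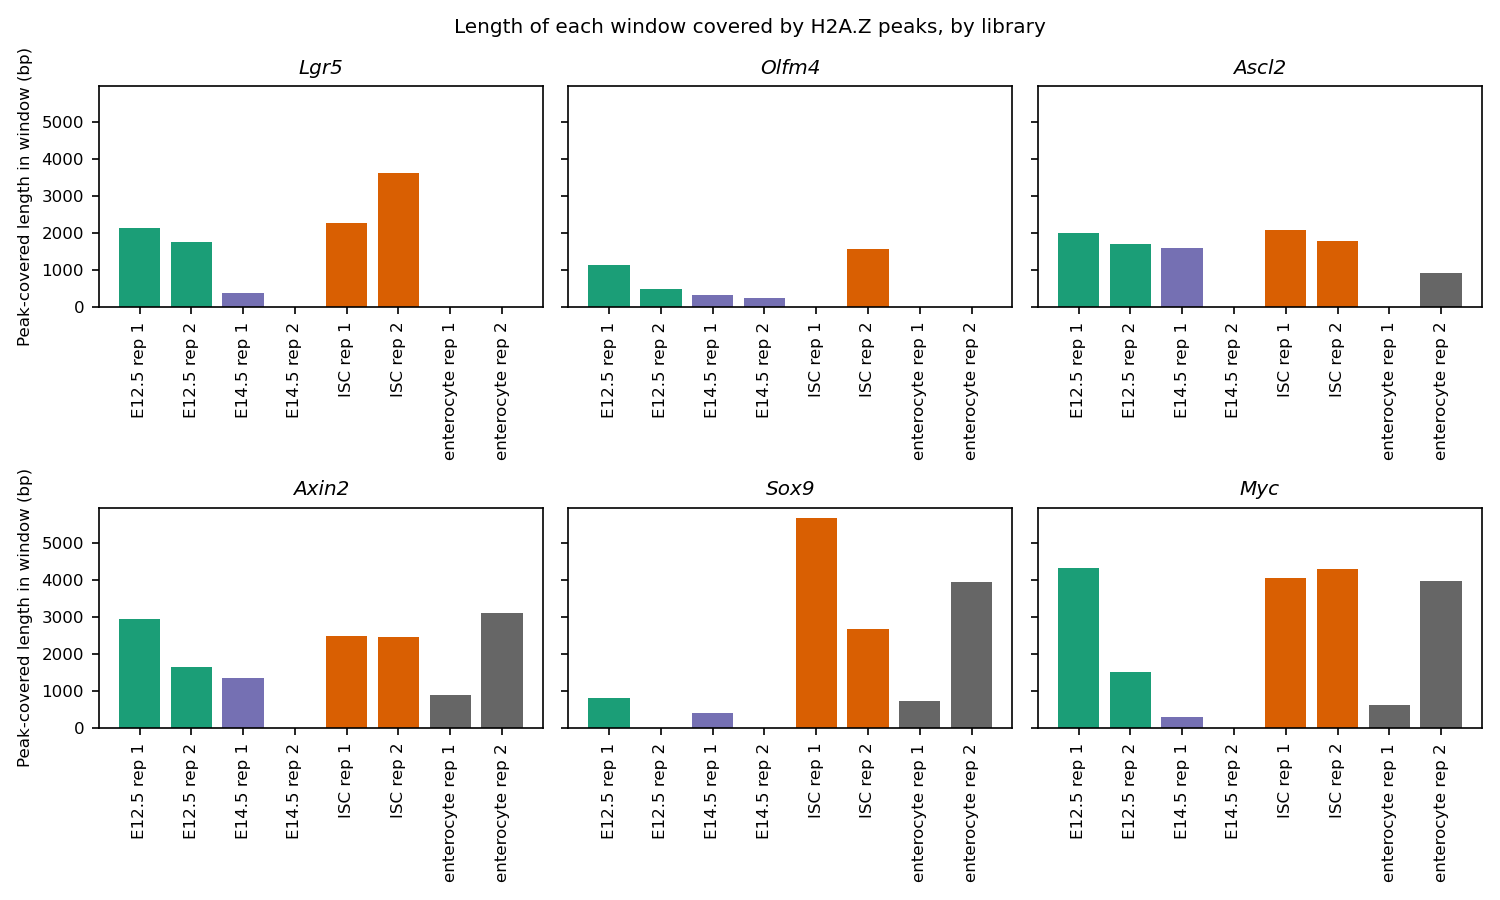
Length of each window covered by peaks (bp, vertical axis, from 0) in each of the 8 libraries (bars, coloured by stage). Sox9 reaches 5681 bp in ISC replicate 1 against at most 810 bp in the embryonic libraries, and Lgr5 and Olfm4 have no bar in enterocytes.

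Summed over its whole window, Lgr5 was covered by 1933 ± 260 bp at E12.5, 190 ± 269 bp at E14.5, 2951.5 ± 955 bp in ISC and 0 bp in both enterocyte libraries (SD, n = 2 each). Ascl2 had 1838.5 ± 207, 789.5 ± 1117, 1933.5 ± 217 and 451.5 ± 639 bp in the same order. The E12.5 and ISC means of Ascl2 differed by less than the spread between replicates. Axin2 had 2304.5 ± 902, 680 ± 962, 2474 ± 21.2 and 2002.5 ± 1562 bp, and the SD of enterocytes was larger than the distance of their mean from that of any other stage. Myc had 2928 ± 2001, 152 ± 215, 4185 ± 184 and 2303 ± 2362 bp. Sox9 had 405 ± 573, 202 ± 286, 4187 ± 2113 and 2334.5 ± 2272 bp, and Olfm4 808.5 ± 472, 266.5 ± 58.7, 774 ± 1095 and 0 bp. E14.5 had the lowest mean at Axin2, Sox9 and Myc, and enterocytes at Lgr5, Olfm4 and Ascl2; each of these stages holds 1 of the libraries of short estimated fragment size.

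The first comparison asked which regions distinguish E12.5 from E14.5. A region counted when both libraries of 1 stage and neither of the other had a peak. Of the 14 member regions, 1 (7.14%) met this on the side of E12.5, the 594 bp region of Lgr5, against 10.4% of all regions. On the side of E14.5 there was none, against 0.127% of all regions. The E12.5 count was 1 also without the libraries of short estimated fragment size (10.6% of all regions). It was 5 of 14 (35.7%) without E12.5 replicate 2, against 23.5% of all regions, and 5 of 14 without E14.5 replicate 1, against 31.8%. At Axin2 and Myc, E14.5 replicate 2 was the only library without a peak. This was also so for 5003 (55.6%) of the 9002 regions found in all 7 other libraries.

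The second comparison set E14.5 against ISC, the step that the series title calls specification of adult stem cells. In both ISC and neither E14.5 library lay 1 of 14 member regions, the 914 bp region of Axin2, against 21.8% of all regions. None lay in both E14.5 and neither ISC library, where the share of all regions was 0.247%. The ISC count was again 1 with the libraries of short estimated fragment size left out (22.1% of all regions). Without E14.5 replicate 1 it was 6 of 14 (42.9%), close to the 42.8% of all regions. It was 3 of 14 without ISC replicate 1 and 3 of 12 without ISC replicate 2, against 38.6% and 30.9% of all regions. Olfm4 would enter on the side of E14.5 without ISC replicate 2, with a count of 1 against 0.506% of all regions. Both ISC covered lengths were above both E14.5 ones in 6 of the 14 member regions (42.9%), among them the widest region of every locus but Olfm4, against 48.3% of all regions.

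The third comparison followed ISC to enterocytes. The 1 member region in both ISC and neither enterocyte library was the widest region of Lgr5, and the share over all regions was 15.5%. None was in both enterocyte and neither ISC library, as were 0.233% of all regions. Peaks in all 4 libraries were called at Axin2, Sox9 and Myc, 3 of the 14 regions (21.4%, against 24.8% of all). The ISC count was 1 when the libraries of short estimated fragment size were left out (15.7% of all regions). It was 4 of 14 without ISC replicate 1, against 31.9% of all regions, 3 of 12 without ISC replicate 2, against 22.7%, and 3 of 14 without enterocyte replicate 2, against 29.7%.

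The widest regions of Lgr5, Ascl2, Axin2 and Myc had in common a peak in both E12.5 libraries, E14.5 replicate 1 and both ISC libraries, as 13201 regions did. They differed in enterocytes, where Lgr5 had a peak in neither, Ascl2 in 1 and Axin2 and Myc in both libraries. Among the 13201 regions, 13% had a peak in neither enterocyte library, 18.8% in 1 and 68.2% in both.

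The embryonic libraries were then set against the adult ones by covered length, with an exact two-sided permutation test over the 70 splits of 8 libraries, run on all 45028 regions with Benjamini-Hochberg adjustment. The Sox9 region had the largest member difference, with a mean of 3166 ± 1943 bp in adult and 303.5 ± 388 bp in embryonic libraries (SD, n = 4 each), for an exact permutation p of 0.0571 and an adjusted p of 0.831. It was 2862.5 bp longer in adults, and 5.36% of all regions had as low a p. Myc differed by 1704 bp (exact permutation p = 0.286, adjusted p = 0.928), Axin2 by 531.5 bp (exact permutation p = 0.343, adjusted p = 0.928) and Lgr5 by 397.75 bp (exact permutation p = 0.657, adjusted p = 1). At Ascl2 and Olfm4 the adult mean was lower, by -138.25 and -81.25 bp (exact permutation p = 1 and 0.83). No member region passed the adjusted test, and neither did any other region (0%). The smallest p the design allows is 0.0286, and the lowest adjusted p over all regions was 0.809. At an unadjusted p under 0.05, 0 of the 14 members were higher in adult or in embryonic libraries, against 3.31% and 0.224% of all regions. Enterocyte replicate 1, with 728 bp, was the only adult library within the embryonic range at Sox9. Without enterocyte replicate 1, Sox9 reached an unadjusted exact permutation p of 0.0286 (adjusted p = 0.267), the lowest that the remaining libraries allow. The share of all regions reaching it is not given here, so it cannot be read as particular to Sox9. Of the 186 regions of at least 4000 bp, to which Sox9 and Myc belong, 94.6% had the higher mean in adult libraries, against 68.3% of all regions. The width of a region comes from the same peaks as the covered lengths, and Sox9 passes 4000 bp only through adult peaks. The 94.6% is thus partly set by the choice of wide regions and adds no support.

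**Figure D4:**
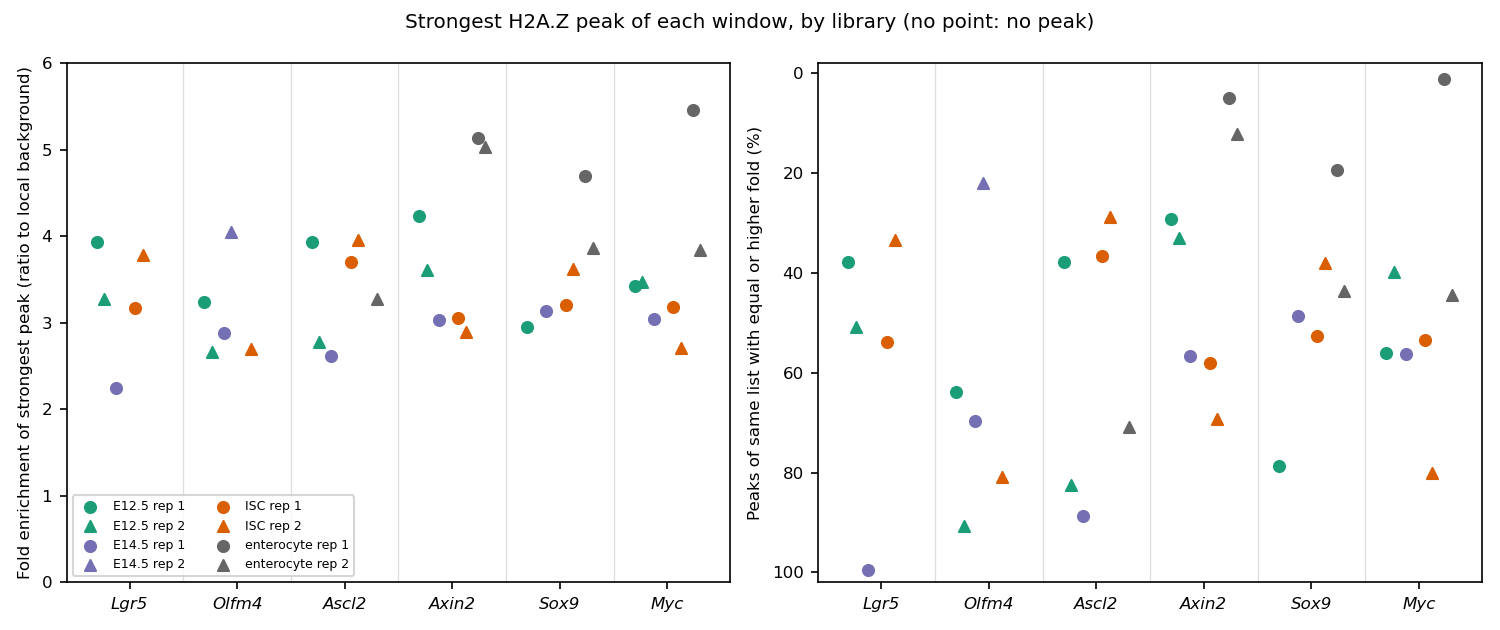
Fold enrichment of the strongest peak in each window (left, ratio to local background) and the percent of peaks of the same list with an equal or higher fold (right, axis reversed so that stronger peaks are higher), by library; circles are replicate 1 and triangles replicate 2. Both enterocyte points of Axin2, at 4.95% and 12.2%, lie above all its other points, and the Myc point of enterocyte replicate 1 lies at 1.16%.

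Member peaks were of middling strength for their lists. Over the 53 peaks, the percent of peaks in the same list with an equal or higher fold ran from 1.16 to 99.5, with a median of 56.8, and 2 peaks were in the top 10%, the strongest peak of Myc and that of Axin2 in enterocyte replicate 1. By p the median was 54.9%. More of them stood out in width, where 16 of the 53 peaks were among the widest 10% of their list, and the Myc peak of E12.5 replicate 1 was among the widest 0.0384%. These 16 were the widest regions of Lgr5, Ascl2, Axin2, Sox9 and Myc, each counted in several libraries, and not separate members. Of the 53, 9 were among the 6136 strongest peaks of their list by p: the Axin2 region in 5 libraries, Myc with 2 peaks and Sox9 with 1 in enterocyte replicate 1, and Olfm4 in E14.5 replicate 2, whose whole list is that long. Lgr5 and Ascl2 had none there in any library. These 6136 peaks are a larger part of the 14256 peaks of enterocyte replicate 1 than of the 26925 and 32131 of ISC. The counts therefore depend on list length, and the share over all peaks was not computed.

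Of the regions just outside the windows, the closest lay 584 bp beyond the Ascl2 window, from 150175584 to 150176834, with a peak in both E12.5 libraries alone; Tspan32 is the next gene on that side in RefSeq. Another lay 2983 bp beyond the Sox9 window, from 112671983 to 112672956, with peaks in E12.5 replicate 1, both ISC libraries and enterocyte replicate 2.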

How the data were processed

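Per the file headers, the authors called peaks for each H2A.Z library against an input with MACS 2.1.0.20140616 in broad mode (q cutoff 0.05, model fold 10 to 30). The lowest −log10 q in a list was 1.00 to 1.06, so the lists include peaks with a q above 0.05. Names of tools given in the submitters' processing notes are bcl2fastq 1.8.4, Bowtie 1.1.2 and SAMtools 1.2, with the build mm9. The deposited lists give for each peak a pileup, which is a coverage signal, −log10 p and −log10 q values, and a fold enrichment, a ratio to the local background. These were used only to describe, rank or filter peaks within a list, and the 6 inputs entered only through the calling.

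Peaks were joined where they overlapped or touched, with Python 3.11.15, numpy 2.4.6 and pandas 2.3.3. Covered length is the bp of a library's peaks in a region or window. Merging and the permutation test were tested on simulated data. Coordinates are given for the widest region of a locus, that with the highest fold and those called in a comparison, and other regions were added so that each member is accounted for. The members and lists were chosen with earlier results of these data known. Shares among regions with like presence, shares of all regions under each alternative, lists without the libraries of short estimated fragment size and a −log10 q of at least 2 were added after seeing the data. Alternatives were a −log10 q of at least 10, 6136 peaks per list, 50% coverage, merging within 500 bp, windows 5000 bp shorter at each end, presence, rank by p, leaving out each library and a replicate block. RefSeq tables of GRCm38.p6 gave names, neighbours and promoter sequences only. Other Wnt pathway genes and cell type markers were not analysed here, since no mm9 gene positions were used.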

Additional observations from a re-analysis of the deposited data

Results flagged for a closer look

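Within the groups of 4 embryonic and 4 adult libraries, the covered length of each window was searched for a library far from the other 3. The rule was set so that chance would flag about 1 of 20 groups. That rate was not checked for these lengths, which hold zeros and mix 2 stages in a group. Of the 12 groups searched, 2 had such a library. At Olfm4, ISC replicate 2 covered 1548 bp and the other 3 adult libraries 0 bp. At Myc, enterocyte replicate 1 covered 633 bp, against 3973 bp in the nearest of the other adult libraries. For that library the peak caller had estimated a fragment size of 67 bp, next to its tag length of 68 bp, and the median peak width was 388 bp; their part in the Myc value was not tested.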

How the results depend on the processing

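The peaks at these loci are near the middle of their lists, and stricter lists removed most of them. With a −log10 q of at least 10, 1 member peak was left. The 3 counts of 1 region (E12.5 over E14.5, ISC over E14.5, ISC over enterocytes) became 0, with 1 member region left to call. The shares over the 10377 regions of these lists were 13.2%, 62.9% and 51%. The covered length per library, summed over the windows, was 195 bp against 9023.5 bp. The mean over libraries of the median percent of peaks as high as the strongest of a window was 97.6 against 42.4. The Axin2 difference, adult minus embryonic, was -389.75 bp against 531.5 bp. With 6136 peaks per list, 5 member regions were left and those 3 counts were 0, 0 and 0, against 5.15%, 8.76% and 6.08% of 12760 regions. The count of enterocytes over ISC was 1 against 0 (4.72% of these regions). The covered length was 1141 bp and the Axin2 difference -377.25 bp. Requiring 50% coverage gave 3 regions for ISC over E14.5 and 2 for ISC over enterocytes (27.3% and 18.9% of all regions), and a −log10 q of at least 2, added after seeing the data, gave 2 and 2 (24% and 16.8%). Stricter lists hold fewer peaks by construction, and the cause of the other changes was not tested. Leaving out each library in turn gave 1 to 5 regions for E12.5 over E14.5, 1 to 6 for ISC over E14.5, 0 to 1 for E14.5 over ISC and 1 to 4 for ISC over enterocytes. The differences, adult minus embryonic, ranged from -52.3 to 801 bp at Lgr5, -468.25 to 51 bp at Olfm4 and -558 to 235 bp at Ascl2, so their sign rests on single libraries, while they stayed positive at Axin2 (149 to 791.5 bp), Sox9 (1893 to 3675 bp) and Myc (1191 to 2638 bp). The Olfm4 sign changed when E12.5 replicate 1, ISC replicate 1 or 1 of the enterocyte libraries was left out, that of Ascl2 without either E12.5 library or enterocyte replicate 1, and that of Lgr5 without ISC replicate 2. Merging within 500 bp and shorter windows left each count within 1.5 times. No clear pairing by replicate number was seen: over 45028 regions, same-numbered libraries of 2 stages had correlations of deviations from -0.47 to 0.118, and 1 of 6 was over 0.1. The -0.47 was that of E14.5 and enterocytes, whose libraries of short estimated fragment size have different replicate numbers. With 2 libraries per stage, the check cannot exclude a pairing. With a replicate block, which allows 36 splits and no p below 0.0556, 0 member regions passed and Sox9 had an exact permutation p of 0.111.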
